A study of Mus musculus with 6 samples.

Results

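The 8 genes described here are the Notch receptors Notch1, Notch2 and Notch3, the ligand Jag1 and the transcriptional targets Hes1, Hey1, Hey2 and Heyl, taken by name from the 19069 genes of the single-cell tables. All 8 were listed on each of the 6 plates. The cells were sorted without an antibody gate for fibroblasts, as EPCAM-, CD45- and CD31- cells of mouse colon tumors raised with the carcinogen azoxymethane and the colitis agent dextran sulfate sodium (AOM/DSS), and were profiled by SORT-seq, a plate-based 3′ tag method with 1 cell per well. Each plate held cells of 1 mouse. Mice 1, 3 and 4 were FibCtrl, littermates without the Cre transgene, and mice 2, 5 and 6 were FibΔZeb1, which carried Col6a1-Cre and floxed Zeb1, so that the deletion follows the activity of the Col6a1 promoter, constitutively and not in every mesenchymal cell. Both groups received AOM/DSS, and no tumor-free mouse was included. Plate 6, a FibΔZeb1 mouse, was sequenced in a separate run, so its run and its biology cannot be told apart.

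In the Notch pathway, a ligand such as Jagged1 on one cell binds a Notch receptor on its neighbour, the receptor is cleaved, and its intracellular part joins the DNA-binding protein RBPJ to switch on targets. Best known among these targets are the Hes and Hey genes, which encode transcriptional repressors of the basic helix-loop-helix family. In blood vessels NOTCH3 is the characteristic receptor of mural cells, the pericytes and smooth muscle cells that wrap the endothelium, and JAG1 is one of its ligands. NOTCH1 and NOTCH2 act in many cell types, including epithelium and blood cells.

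The annotation of mouse build GRCm38 places the receptors on chromosome 2 (Notch1, 26457903 to 26516663, minus strand), chromosome 3 (Notch2, 98013527 to 98150361, plus strand) and chromosome 17 (Notch3, 32120820 to 32166852, minus strand). Jag1 lies on chromosome 2 (137081456 to 137116644, minus strand). The targets are Hes1 on chromosome 16 (30064384 to 30067796, plus strand), Hey1 on chromosome 3 (8663359 to 8667256, minus strand), Hey2 on chromosome 10 (30832359 to 30842801, minus strand) and Heyl on chromosome 4 (123233556 to 123249875, plus strand). All are protein-coding, and a 3′ tag counts the end of each transcript without telling its isoforms apart.

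RefSeq promoters on GRCm38.p6, running from 250 bases before to 50 bases after the start of transcription, were matched for 5 of the 8 genes. Those of Notch3 and Hey2 are printed, the matched genes that were chosen as high in pericytes. Those of Notch1 and Jag1, also mural-high here, and of Notch2 are not printed. That of Nrarp is added, a feedback inhibitor of Notch signaling whose level is given with the results. Letters are on the strand of the gene, 5′ to 3′, and capitals mark matches to TGGGAA (the core bound by RBPJ), to CACGTG (an E-box) or to CACNAG (an N-box, the class of site named for HES repressors), searched on both strands.
Notch3, chr17:32166841-32167140, minus strand: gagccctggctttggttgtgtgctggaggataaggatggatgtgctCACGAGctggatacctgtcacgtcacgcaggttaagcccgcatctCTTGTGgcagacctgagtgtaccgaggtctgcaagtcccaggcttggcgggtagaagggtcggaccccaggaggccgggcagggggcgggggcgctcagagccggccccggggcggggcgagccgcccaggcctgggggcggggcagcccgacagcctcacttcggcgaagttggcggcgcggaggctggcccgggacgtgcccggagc
Hey2, chr10:30842734-30843033, minus strand: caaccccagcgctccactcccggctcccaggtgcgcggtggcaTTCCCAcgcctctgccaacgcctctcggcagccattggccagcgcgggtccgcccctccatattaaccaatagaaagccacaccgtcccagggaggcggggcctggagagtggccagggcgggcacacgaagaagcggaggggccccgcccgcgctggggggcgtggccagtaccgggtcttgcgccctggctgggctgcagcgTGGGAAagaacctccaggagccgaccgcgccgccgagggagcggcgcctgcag
Nrarp, chr2:25180508-25180807, plus strand: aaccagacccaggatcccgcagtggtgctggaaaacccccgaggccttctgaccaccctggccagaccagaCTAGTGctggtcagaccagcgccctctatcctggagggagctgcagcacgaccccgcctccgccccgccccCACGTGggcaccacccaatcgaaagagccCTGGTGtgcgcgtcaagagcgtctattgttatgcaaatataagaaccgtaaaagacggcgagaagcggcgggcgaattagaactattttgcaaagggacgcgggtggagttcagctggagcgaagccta

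The Hey2 promoter held 2 TGGGAA matches, 1 of them across the start of transcription. The Notch3 promoter held 2 CACNAG matches and no TGGGAA, and the Nrarp promoter held 1 CACGTG and 2 CACNAG. None of these matches overlapped another. The promoters of Notch1, Notch2 and Jag1, not printed, held 0 TGGGAA and 0 CACGTG, with 3 CACNAG matches in Notch1, 1 in Notch2 and 0 in Jag1. Of 32851 RefSeq promoters of this length, 25.6% held TGGGAA, 7.15% held CACGTG and 42.5% held CACNAG. The matches describe letters only, and binding was not measured.

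Of 2304 wells, 1233 had 100 to 6000 genes and under 10% of their transcripts from the mitochondrial genome. A further 305 wells with more than 1 transcript of Ptprc or of Epcam, markers of leukocytes and epithelium, were set aside, which left 928 wells (46 to 260 per mouse). Lists of marker genes without any Notch pathway gene then gated 535 fibroblast, 77 mural, 199 neutrophil, 51 epithelial, 10 glial and 1 endothelial well, with 55 unassigned. Fibroblast wells fell into 213 iCAF (inflammatory cancer-associated fibroblast), 130 telocyte and 118 Cxcl13/Grem1 wells, with 74 in no subtype. The 14 gated wells closest to the limit between lists had a next-best score of over 0.65 of the best. Mural wells were 16, 39, 3, 12, 4 and 3 in mice 1 to 6, so that mouse 2 gave the most and mice 3, 5 and 6 very few. Median depth was 11736 transcripts in mural, 11841 in fibroblast and 946 in neutrophil wells. The plates share 1 set of 384 well barcodes, which name positions and not cells.

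The mural gate was checked against markers that are not Notch genes. Rgs5, a pericyte gene, had 1762 CPM (transcripts of the gene per 1000000 transcripts, over the wells summed) in mural wells against 5.43 in fibroblast wells. Summed over the 10 mural markers, the range over mice was 5550 to 7961 CPM in mural and 119 to 198 CPM in fibroblast wells. Smooth muscle genes were high too: the list of 8 summed to 5570 to 10183 CPM against 246 to 1957, and Myh11, smooth muscle myosin, was present in 66 of the 77 wells. Pericytes and vascular smooth muscle were therefore not separated, and the wells are called mural. Fibroblast markers summed to 3340 to 13922 CPM in mural wells and 27456 to 44635 CPM in fibroblast wells. Of 10 endothelial markers 6 were detected in mural wells, where they summed to 148 to 633 CPM against 15.1 to 60.5 in fibroblasts. Tie1 led them at 181 CPM, while Cdh5, Cldn5, Egfl7 and Kdr were at 0.

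Zeb1, the targeted gene, was measured first as a check of the labels. In fibroblast wells it had 97.4 to 114 CPM in the FibCtrl mice and 59.7 to 73.4 CPM in the FibΔZeb1 mice, with no overlap. The means were 108 ± 9.34 and 66.6 ± 6.87 CPM (SD, n = 3 each), and the exact permutation test gave p = 0.1, the smallest possible with 3 mice against 3. In edgeR's quasi-likelihood test across all genes the log2 fold change was -0.66 ± 0.22 (SE), with an unadjusted p of 0.0153 and an adjusted p of 0.9999. The deleted exon was not identified from the sources used here, and a 3′ tag outside it would still be counted.

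Notch3 was a mural transcript in every mouse. In mural wells it had 1569, 1433 and 1224 CPM in FibCtrl mice 1, 3 and 4, and 1087, 1485 and 731 CPM in FibΔZeb1 mice 2, 5 and 6. The fibroblast wells of the same mice had 7.45, 4.23 and 5.73 CPM in FibCtrl, and 10.4, 32.2 and 0 CPM in FibΔZeb1. The lowest mural value thus stood far above the highest fibroblast value. In mice 1, 2, 4 and 5, those with more than 3 fibroblast transcripts of Notch3, the ratio of the classes was 46.1 to 214, with a median of 158, and in mouse 6, without a fibroblast transcript, it was at least 58.4 against a floor of 3 counts. Notch3 and the Hey genes were chosen for this pattern, so these values are a description without a test.

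The Notch target Heyl followed the same distribution. Its mural level was 548, 882 and 461 CPM in mice 1, 3 and 4 and 381, 185 and 345 CPM in mice 2, 5 and 6. Fibroblast wells had 7.91, 0 and 7.16 CPM in the former and 12.97, 16.1 and 8.34 CPM in the latter. The classes did not overlap, and the ratio was 11.5 to 69.3 in the 4 mice with more than 3 fibroblast transcripts, with a median of 46.9. Across all genes tested, 4.32% stood higher in mural wells without overlap over the 6 mice. Among the 8 genes these were Notch1, Notch3, Jag1 and Heyl, and since Notch3 and Heyl were chosen for this contrast, nothing is read from the count.

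Hey2 and Hey1 were sparse. Hey2, best known from vascular and cardiac development, had 70.4, 82.5 and 80.4 CPM in the mural wells of mice 1, 3 and 4, and 43.4, 0 and 60.8 CPM in those of mice 2, 5 and 6. Fibroblast wells held 3 Hey2 transcripts in all, against 51 in mural wells, 25 of them from mouse 2. The pooled ratio of 118 is a description without a test. Hey1 had 86.1, 27.5 and 7.31 CPM in mural wells of mice 1, 3 and 4 and 27.8, 37.1 and 20.3 CPM in mice 2, 5 and 6. Mice 3, 4, 5 and 6 contributed 1 Hey1 transcript each. Fibroblast wells had 4.02 to 8.34 CPM, and although mural Hey1 was higher in 6 of 6 mice, the ranges overlapped.

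**Figure D1:**
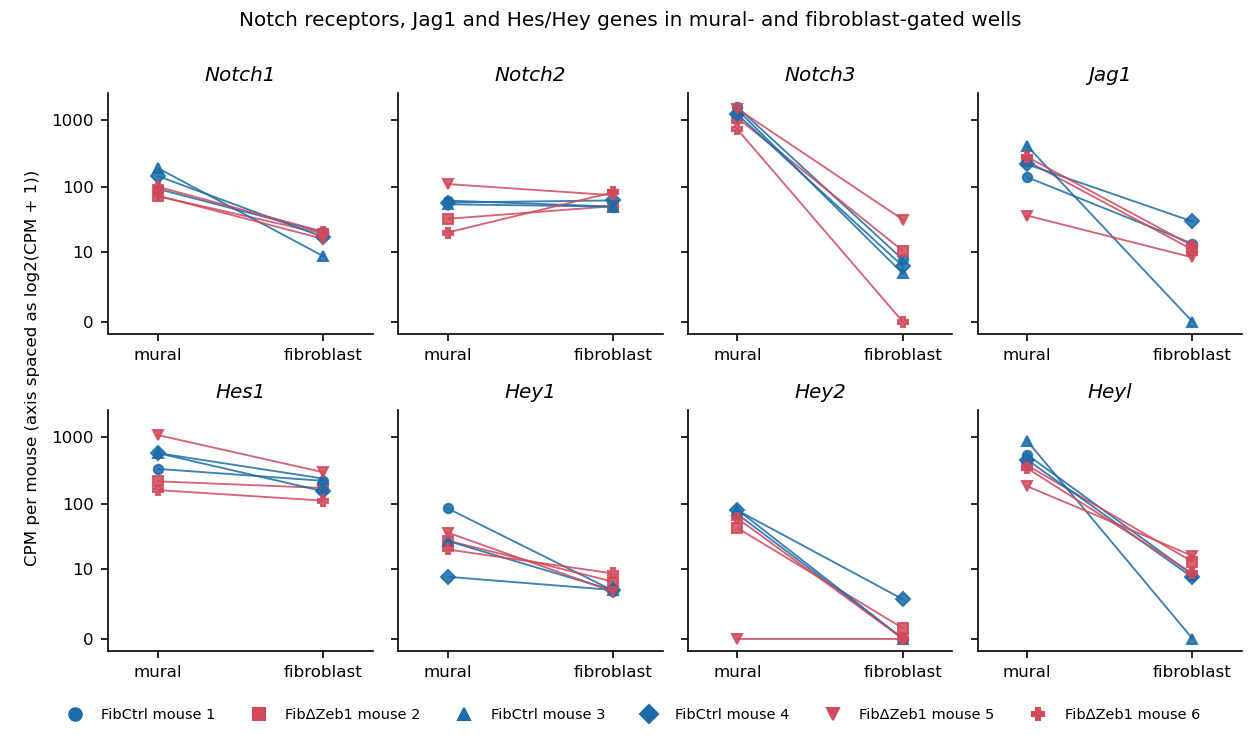
CPM of the 8 genes in mural and fibroblast wells of each mouse, on an axis spaced as log2(CPM + 1). Each marker is 1 mouse (blue FibCtrl, red FibΔZeb1), and a line joins the classes of the same mouse. Notch3 and Heyl drop steeply from mural to fibroblast wells in all 6 mice, Jag1 and Notch1 drop less, Hes1 drops slightly, and Notch2 goes either way.

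Jag1, the ligand, was higher in mural wells. It had 141, 413 and 220 CPM in mice 1, 3 and 4 and 245, 37.1 and 284 CPM in mice 2, 5 and 6. In fibroblast wells it had 13.5, 0 and 30.1 CPM in the former and 10.8, 8.05 and 12.5 CPM in the latter. The lowest mural value, 37.1 CPM in mouse 5, rests on 1 transcript. In mice 1, 2 and 4, those with at least 5 mural wells, the log2 fold change was 3.57 ± 0.33 (SE) with an adjusted p of 1.39e-07. In this comparison, fitted with the mouse as a block, 17.9% of 7631 genes were called, 8.39% higher and 9.53% lower in mural wells.

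Notch1 was likewise higher in mural wells in 6 of 6 mice, as were 8.23% of all genes tested. Its mural level was 93.9, 193 and 146.3 CPM in mice 1, 3 and 4 and 73.0, 74.1 and 101 CPM in mice 2, 5 and 6. Fibroblast wells ranged from 8.47 to 20.8 CPM, and the classes did not overlap. The mural values of mice 5 and 6 rest on 2 and 5 transcripts, and the fibroblast value of mouse 3 on 2. The log2 fold change was 2.19 ± 0.34 (SE), with an adjusted p of 6.97e-05. With sums of at least 3 wells, which let all 6 mice enter, it was 2.36 with an adjusted p of 3.91e-05. Summed, the endothelial markers given above were also higher in mural wells, though Tek and the markers at 0 there were not. The part of endothelial transcripts in the Notch1 and Jag1 results was not tested.

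Hes1 and Notch2 did not pass the test. Hes1 had 337, 579 and 579 CPM in mural wells of mice 1, 3 and 4, and 219, 1076 and 162 CPM in mice 2, 5 and 6. Fibroblast wells had 223, 241 and 156 CPM in the former and 174, 300 and 113 CPM in the latter. Mural wells were higher in 6 of 6 mice, at 1.26 to 3.71 times the fibroblast level, but the ranges overlapped. The log2 fold change of 0.80 ± 0.29 (SE) had an adjusted p of 0.0675, and with all 6 mice (sums of at least 3 wells) it was 0.96 with an adjusted p of 0.0113.

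Notch2 had 20.3 to 111 CPM in mural and 50.7 to 83.4 CPM in fibroblast wells. Mural wells were higher in 3 of 6 mice, and the log2 fold change was -0.34 ± 0.33 (SE) with an adjusted p of 0.584. Of the 8 genes 7 passed the filter on low counts in this comparison. Hey1 did not.

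Of 41 other Notch pathway genes listed, 24 were tested, 2 were higher in mural wells and 1 was lower, beside 8.39% and 9.53% of all genes, and their median log2 fold change of -0.03 was close to that of all genes (-0.02). Nrarp had 37.1 to 223 CPM in the mural wells of the 6 mice. Fibroblasts held 1 Nrarp transcript against 98 in mural wells, a ratio of 682 pooled over the 6 mice (95% counting interval 120 to 27209). The edgeR fit used only the 3 mice with at least 5 mural wells. It gave Nrarp a log2 fold change of 8.46 ± 0.61 (SE) with an adjusted p of 7.51e-09. Dtx3, a Deltex-family gene, was also higher, by 1.47 ± 0.24 on the log2 scale (SE, adjusted p of 0.000107).

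Dll1, a Delta-type ligand, went the opposite way. It had no transcript in mural wells of any mouse and 192 in fibroblast wells, where the level was 8.34 to 38.1 CPM. Pooled over all mice, it was at least 9.20-fold lower in mural wells against a floor of 3 counts over the class. The edgeR fit of 3 mice gave Dll1 an adjusted p of 0.000219. Rbpj, the DNA-binding partner of the receptors, differed by 0.28 ± 0.27 on the log2 scale (SE, adjusted p of 0.588). Other ligands and receptors were too sparse to test: Notch4 had 10 transcripts in mural and 15 in fibroblast wells, Jag2 had 0 and 1, and Dll4 had none in either.

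Mural wells, 8.30% of all kept wells with 11.2% of the transcripts, held 83.7% of the Notch3 transcripts, 81.0% of Hey2 and 77.5% of Heyl. Their share was 59.5% of Jag1, 43.1% of Hey1, 27.8% of Notch1, 16.6% of Hes1 and 8.23% of Notch2. Thus the 8 genes ran from strongly concentrated in mural wells to a share near that of the wells themselves.

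Single mural wells combined several of the genes. Of 77 wells 76 had a Notch3 transcript, 67 had Heyl, 58 Hes1, 55 Jag1, 44 Notch1, 30 Notch2, 28 Hey2 and 22 Hey1. At least 1 of the 3 Hey genes was present in 72 wells, and all 3 in 6. Notch3 counts reached 20 or more in 18 mural wells and 10 to 19 in another 38. No fibroblast well reached 10. Among mural wells, pooled over mice, Notch3 was present at 1152 CPM in the 66 with Myh11 and at 1374 CPM in the 11 without. In mouse 2 the levels were close, at 1086 CPM (33 wells) and 1092 CPM (6 wells). Mice 1 and 4 had 4 and 1 wells without Myh11, at 1978 and 2188 CPM, against 1472 and 1165 CPM in those with it.

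**Figure D2:**
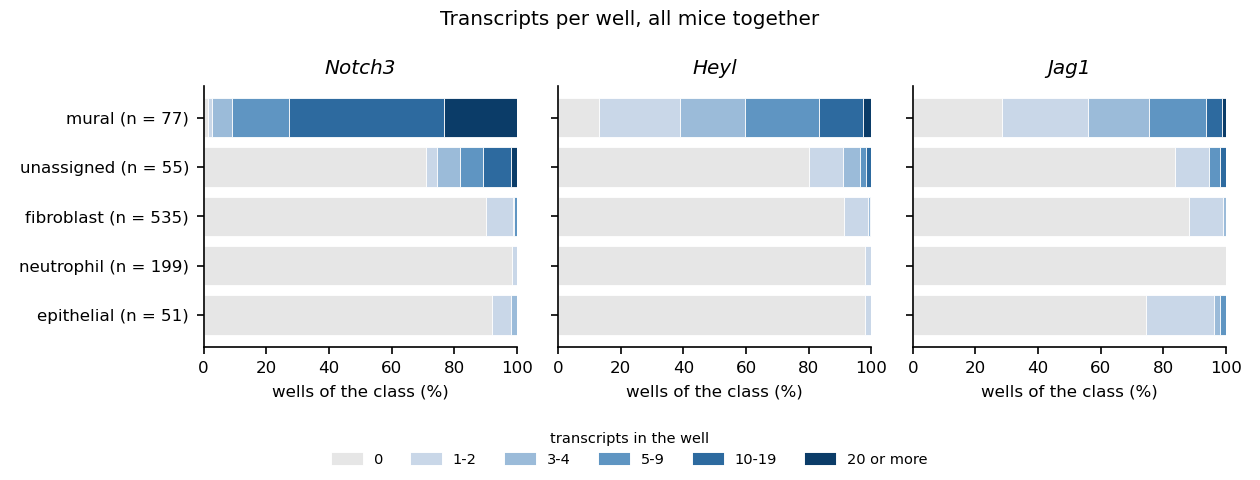
Share of wells (%) by the number of Notch3, Heyl or Jag1 transcripts in the well, for 5 classes with all mice together. Most mural wells hold 10 or more Notch3 transcripts, whereas 483 of 535 fibroblast wells hold none, and some of the 55 unassigned wells reach counts like those of mural wells.

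Since deeper wells show more genes, each well was thinned to 1000 barcodes, which left out 1 mural, 20 fibroblast and 107 neutrophil wells. Notch3 was then seen in 68.4% of 76 mural wells (exact 95% interval 56.7 to 78.6), 1.36% of 515 fibroblast wells (0.548 to 2.78) and 3.26% of 92 neutrophil wells (0.678 to 9.23). Before thinning the shares were 98.7%, 9.72% and 1.51%. The fibroblast and neutrophil shares rest on 7 and 3 wells. Thinned to 500 barcodes, the shares were 1.15% of 521 fibroblast wells and 0 of 174 neutrophil wells, which allows up to 1.72%, so that no order of the latter classes is read. Intervals cover counting error only.

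Heyl was seen in 27.6% of thinned mural wells (18.0 to 39.1) and in 0.971% of fibroblast wells. Jag1 was seen in 17.1% (9.43 to 27.5) and 0.388%. In neutrophil wells Jag1 had a barcode in 0 of 92 wells, and 3 counts of that total, the limit used here for a count of 0, would be 3.26%. Hes1 was spread more evenly, in 27.6% of mural, 16.3% of fibroblast and 4.35% of neutrophil wells. Notch2 was seen in 20.7% of neutrophil wells against 7.89% of mural and 5.05% of fibroblast wells, and Notch1 in 8.70%, 6.58% and 1.94%.

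**Figure D3:**
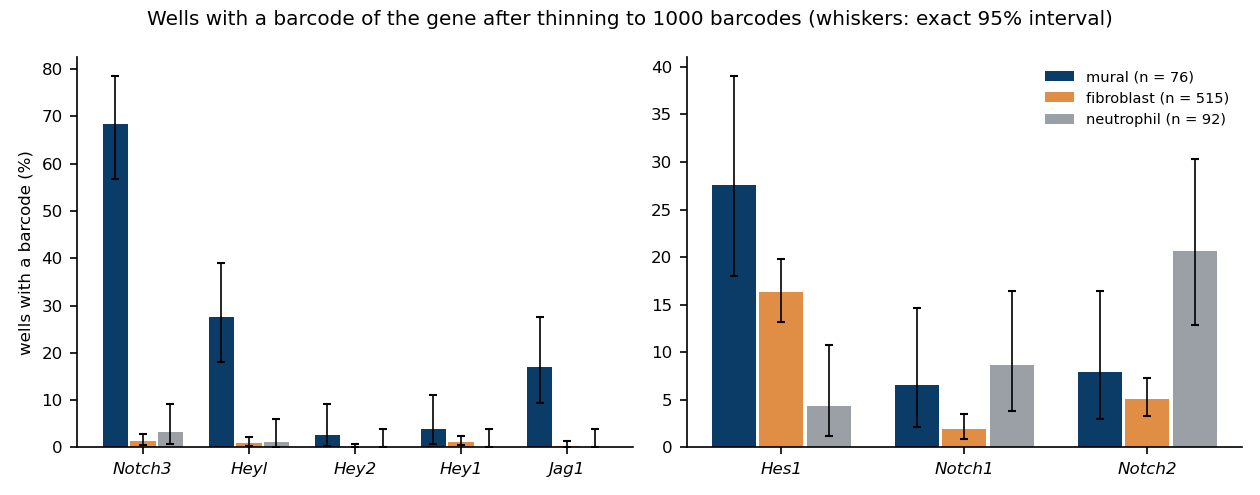
Share of wells (%) with at least 1 barcode of each gene after thinning every well to 1000 barcodes. Bars give mural, fibroblast and neutrophil wells and whiskers the exact 95% interval, with a different vertical scale in each panel. Notch3, Heyl and Jag1 are seen mostly in mural wells, Hes1 in mural and fibroblast wells, and Notch1 and Notch2 most often in neutrophil wells, with overlapping intervals between neutrophil and mural wells.

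The remaining classes also held the receptors. Pooled Notch1 was 135 CPM in epithelial, 100 in neutrophil, 92.4 in mural and 18.7 CPM in fibroblast wells. As means over mice with at least 5 wells it was 104 ± 37.8 CPM (SD, n = 3) in mural, 88.7 ± 60.5 (n = 6) in neutrophil and 58.9 ± 66.8 CPM (n = 3) in epithelial wells, so the order of these 3 turns with the weighting. Notch2 was 264 CPM in neutrophil wells (100 to 418 over mice), 57.2 in fibroblast, 43.0 in mural and 20.6 CPM in epithelial wells. Jag1 was 230 CPM in mural, 52.5 in epithelial and 12.97 CPM in fibroblast wells. For Hes1 the order was mural (321 CPM), epithelial (244), fibroblast (207) and neutrophil (31.9). These are pooled values, and neighbours in each order were not tested apart from mural against fibroblast.

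Likeness to Notch3 was measured by Pearson's r of log2(CPM + 1) over 18 sums of wells, 3 of mural and 15 of fibroblast subtypes, among 9012 genes that were not gate markers or members of the 8. The sums share mice and plates. Cdh2, N-cadherin, came first with r = 0.91, followed by Klk8, Myom1, 1810011H11Rik, Ephx3, Sema5b, Ralgapa1, Rasd1, Nrarp (r = 0.89) and Syt5. Rasd1 was also among the 10 genes most like Heyl. For each of these 10 genes, the 3 mural sums lay above all 15 fibroblast sums, so r largely restates the step between the classes. Of the 8 genes, Heyl (r = 0.85) and Hey2 (r = 0.85) were most like Notch3, and Notch2 (r = -0.06) was not. Since Notch3 and the Hey genes were chosen for being high in mural cells, nothing is read from their likeness.

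Within fibroblasts, only 2 or 3 of the 8 genes had enough counts to compare subtypes. Telocytes are stromal cells under the epithelium marked by Foxl1 and Bmp genes, and iCAF here are wells with Pi16, Cd34 and C3. Hes1 had 170, 316 and 143 CPM in the iCAF of mice 1, 3 and 4 and 330 and 345 CPM in those of mice 2 and 5. Telocytes had 134, 235 and 161 CPM in mice 1, 3 and 4 and 80.8, 93.7 and 110 CPM in mice 2, 5 and 6. The ranges overlapped, and in mouse 4 telocytes were the higher. The log2 fold change of telocytes against iCAF was -1.09 ± 0.32 (SE) with an adjusted p of 0.0200, where 18.8% of 7140 genes were called, 8.84% higher and 9.94% lower. The call was lost without mouse 2 (-0.65, adjusted p of 0.232) and without mouse 5 (-0.92, adjusted p of 0.0794), both FibΔZeb1.

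Notch2 had 55.4 to 132 CPM in iCAF and 18.8 to 63.1 CPM in telocytes. Its log2 fold change of -0.79 ± 0.28 (SE) had an adjusted p of 0.0547, and of 0.0352 to 0.185 over 13 alternative settings. Against Cxcl13/Grem1 fibroblasts, 6.18% of 7196 genes were called for telocytes (2.96% higher, 3.22% lower) and 7.13% for iCAF (3.36% higher, 3.77% lower). None of the 3 genes tested passed there under the main settings, by edgeR or DESeq2. In each comparison 1 had an unadjusted p under 0.05 by both tools. Hes1 was lower in telocytes by -0.98 ± 0.36 on the log2 scale (adjusted p of 0.146), and Notch2 was higher in iCAF by 0.91 ± 0.28 (adjusted p of 0.0668). Over 14 alternative settings the adjusted p ran from 0.0106 to 0.669 for the former and from 0.0293 to 0.385 for the latter. Notch1 differed by -0.30 for telocytes and -0.41 for iCAF, with adjusted p of 0.841 and 0.736.

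The ligand gene Dll1 was lower in iCAF than in telocytes and than in Cxcl13/Grem1 fibroblasts by the test. It had 2.13, 0 and 0 CPM in the iCAF of mice 1, 3 and 4 and 8.08 and 3.97 CPM in mice 2 and 5. Telocytes had 65.8, 75.01 and 29.4 CPM in mice 1, 3 and 4 and 48.7, 56.2 and 15.8 CPM in mice 2, 5 and 6. The iCAF zeros of mice 3 and 4 have floors of 43.1 and 33.0 CPM. The floor of mouse 4 lies above its telocyte value, so neither its direction nor a lack of overlap is established. The log2 fold change of telocytes against iCAF was 3.64 ± 0.50 (SE) with an adjusted p of 2.52e-05. Cxcl13/Grem1 fibroblasts had 0 to 53.2 CPM in FibCtrl mice (median 0) and 0 to 37.2 CPM in FibΔZeb1 mice (median 26.8). Mice 3 and 6 had only 4 such wells each and did not enter the fit. The 0 values of mice 3, 4 and 6 have floors of 65.2, 36.4 and 48.6 CPM, above the highest iCAF value, so an overlap with iCAF is not established. Against Cxcl13/Grem1 fibroblasts, the difference of iCAF was -3.06 ± 0.54 (adjusted p of 0.00218, and 0.165 without mouse 1). That of telocytes was 0.51 ± 0.39 (adjusted p of 0.587). Numbl, a relative of the Notch inhibitor Numb, was lower in telocytes than in iCAF by -1.15 ± 0.30 (adjusted p of 0.0108, and 0.0550 when wells were gated by the share of markers detected).

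**Figure D4:**
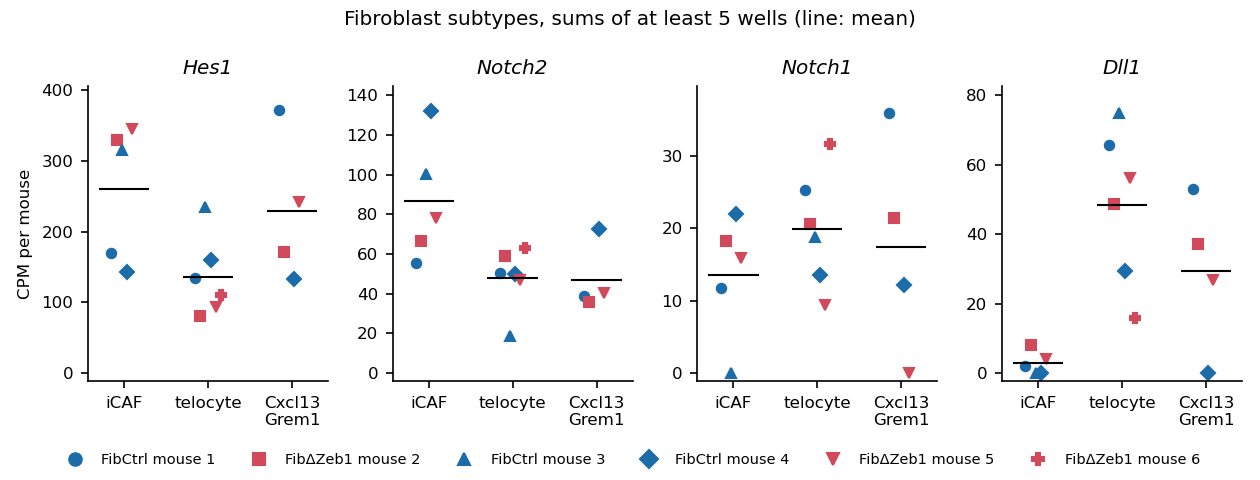
CPM per mouse of Hes1, Notch2, Notch1 and Dll1 in the 3 fibroblast subtypes, for sums of at least 5 wells. Each marker is 1 mouse and the line is the mean. Dll1 is 0 to 8.08 CPM in iCAF and 15.8 to 75.01 CPM in telocytes. In Cxcl13/Grem1 fibroblasts it runs from 0 to 53.2 CPM and overlaps telocytes. The 0 of iCAF in mice 3 and 4 and of Cxcl13/Grem1 in mouse 4 have floors of 43.1, 33.0 and 36.4 CPM. The other 3 genes overlap between subtypes.

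A small group of wells gated as fibroblast carried more Notch3. Of 535 wells 6 had 3 or more transcripts, and 5 of these were from mouse 5, with 4 to 6 Notch3 transcripts each. Their markers go against the gate: none of the 5 had Pdgfra or the mural gene Rgs5, and each had 1 to 6 transcripts of Dcn and 0 to 2 of Col1a1, beside medians of 151 and 45 over all fibroblast wells. Of the 5, 4 also had Heyl. They bear on every fibroblast mean of Notch3, which was 10.0 ± 11.4 CPM (SD, n = 6) and 5.56 ± 3.86 CPM without mouse 5. Likewise 14 of the 55 unassigned wells had 3 or more Notch3 transcripts, with a median of 5.5 mural and 5 fibroblast markers of 10 each. These wells entered neither class.

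Between the genotypes, none of the 8 genes passed the test in fibroblasts. Notch3 had 4.23 to 7.45 CPM in FibCtrl and 0 to 32.2 CPM in FibΔZeb1 (means 5.80 ± 1.61 and 14.2 ± 16.4, SD, n = 3 each, exact p = 0.6). Without mouse 5 the FibΔZeb1 mean was 5.19 CPM, and without the 5 wells mouse 5 itself had 7.22 CPM. The 5 wells were picked by their Notch3 counts, so this fall follows from the choice. The 1 such well of mouse 2 was kept. Heyl, the only one of the 8 whose values did not overlap, had 0 to 7.91 CPM in FibCtrl and 8.34 to 16.1 CPM in FibΔZeb1 (exact p = 0.1, the smallest possible). In mouse 5, 13 of its 16 fibroblast Heyl transcripts lay in the 5 wells described above, and without them it had 3.09 CPM, within the FibCtrl range. Mouse 6 rests on 2 transcripts, and the 0 of mouse 3 has a floor of 12.7 CPM, so the separation does not hold at this depth. Of all genes, 6.36% did not overlap between the genotypes in fibroblasts. Hes1, with 156 to 241 and 113 to 300 CPM, had means of 207 ± 44.9 and 196 ± 95.5 CPM.

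Of the 8 genes 4 were tested in fibroblasts by edgeR. The log2 fold change of FibΔZeb1 against FibCtrl was -0.00 ± 0.39 (SE) for Hes1, -0.68 ± 0.63 for Jag1, 0.12 ± 0.36 for Notch1 and 0.34 ± 0.25 for Notch2, each with an adjusted p of 0.9999. None of the 4 had an unadjusted p under 0.05 by edgeR or by DESeq2. Of all 8585 genes 0% were called by edgeR (127 at an unadjusted p under 0.05) and 4 genes by DESeq2. The targeted gene itself, given above, did not pass this test.

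In mural wells, the values of Heyl did not overlap between the genotypes. Heyl had 461 to 882 CPM in FibCtrl and 185 to 381 CPM in FibΔZeb1 (means 630 ± 222 and 304 ± 104, SD, n = 3 each, exact p = 0.1). Hey2 had 70.4 to 82.5 CPM and 0 to 60.8 CPM (means 77.8 ± 6.46 and 34.8 ± 31.3, exact p = 0.1), but the 0 of mouse 5 has a floor of 111 CPM, above every FibCtrl value, so a separation of Hey2 is not established. Smooth muscle genes in the same wells also separated the genotypes, with a summed level of 5570, 6181 and 6849 CPM in FibCtrl mice 1, 3 and 4 and 9539, 7991 and 10183 CPM in FibΔZeb1 mice 2, 5 and 6, and their part in the Heyl and Hey2 values was not tested. An exact p of 0.1 is the smallest that 3 mice against 3 allow, and 8.08% of 3340 genes did not overlap in this comparison. Mice 3, 5 and 6 had 3 or 4 mural wells each, and the Hey2 values of mice 3 and 6 rest on 3 transcripts each. The lowest Heyl value, 185 CPM in mouse 5, rests on 5 transcripts in 2 of its 4 wells. Notch3 had means of 1408 ± 174 and 1101 ± 377 CPM (exact p = 0.3), with overlap.

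Only FibCtrl mice 1 and 4 and FibΔZeb1 mouse 2 had 5 or more mural wells, so the edgeR fit there takes the lone mouse to vary like the others. In it 0.329% of 3340 genes were called and none of the 7 genes tested, 1 of them (Hes1, -1.04 ± 0.50) with an unadjusted p under 0.05. DESeq2 called none of the 7. With sums of at least 3 wells, all 6 mice entered and none of 1620 genes was called (38 at an unadjusted p under 0.05). There Heyl differed by -0.97 ± 0.40 (SE, unadjusted p of 0.0360, adjusted p of 0.999) and Notch3 by -0.37 ± 0.35 on the log2 scale. This setting was added after seeing the data. In the planned fit of mice 1, 2 and 4 the differences were -0.38 for Heyl and -0.33 for Notch3.

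The difference of the genotype effect between mural and fibroblast wells was tested as an interaction. In mice 1, 2 and 4 it was called for 0.117% of 7678 genes and for none of the 7 tested here, of which Jag1 had the lowest p (1.41 ± 0.68, unadjusted p of 0.0390, adjusted p of 1). DESeq2 called none of the 7, at an unadjusted p under 0.05 either. In mice 1, 2 and 4 the interaction was -1.13 for Heyl and -0.94 for Notch3. With all 6 mice, a setting added after seeing the data, it was -1.88 ± 0.68 for Heyl (unadjusted p of 0.0138) and -1.49 ± 0.69 for Notch3 (unadjusted p of 0.0452). Both of these had an adjusted p of 0.9997. Their fibroblast side leans on the 5 wells of mouse 5, which held 25 of its 32 Notch3 and 13 of its 16 Heyl transcripts.

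**Figure D5:**
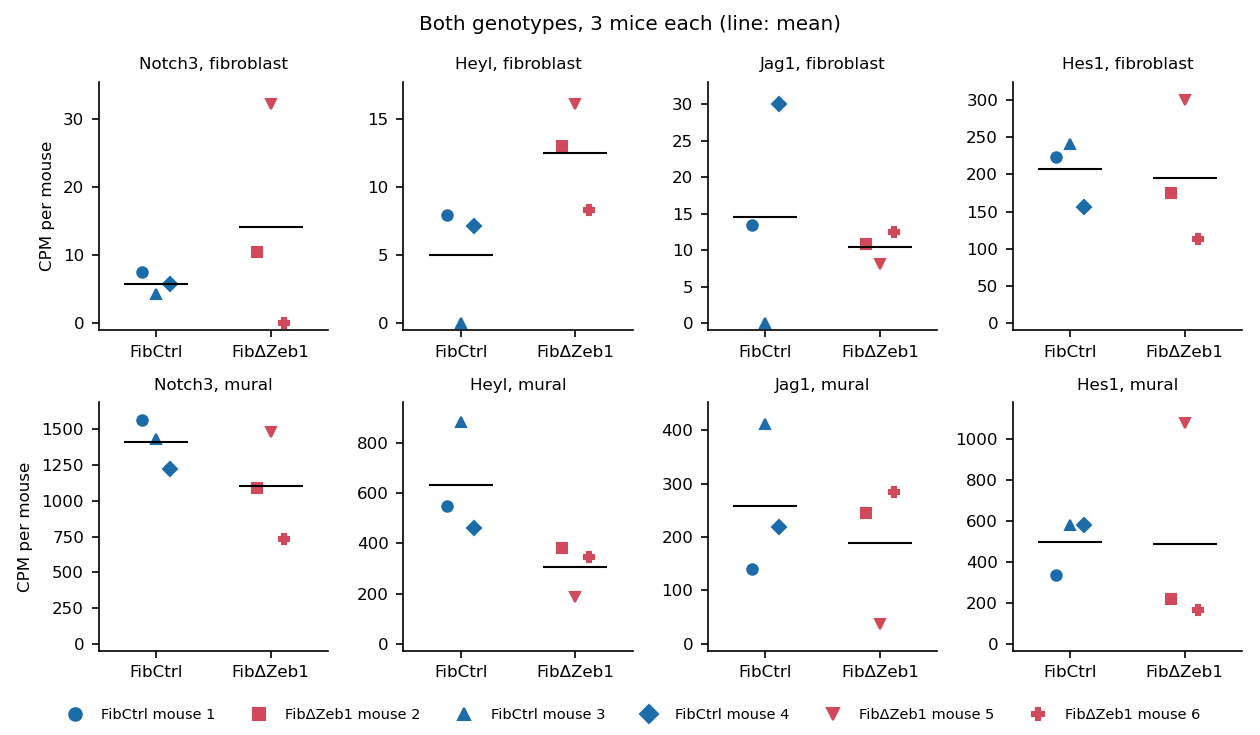
CPM per mouse of Notch3, Heyl, Jag1 and Hes1 in fibroblast (top) and mural (bottom) wells of FibCtrl and FibΔZeb1 mice, each panel with its own axis from 0. Each marker is 1 mouse and the line is the mean of 3. The Heyl values do not overlap in either class, but in fibroblasts mouse 5 falls to 3.09 CPM, inside the FibCtrl range, without 5 of its wells. The other 3 genes overlap in both classes.

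Summed over all kept wells of a mouse, none of the 8 genes passed the test. Notch3 was 105, 142 and 189 CPM in FibCtrl mice 1, 3 and 4 and 240, 62.9 and 104 CPM in FibΔZeb1 mice 2, 5 and 6, with means of 145 ± 41.9 and 136 ± 92.9 CPM (exact p = 0.9). In such a sum, fewer mural cells and less Notch3 per mural cell cannot be told apart. Mouse 2, the highest, had 39 mural wells of 260, and mouse 5, the lowest, had 4 of 198. The exact p of the 8 genes was 0.3 to 0.9 and none was without overlap, against 5.82% of genes. By edgeR 0 of 9747 genes were called (106 at an unadjusted p under 0.05), and by DESeq2 none.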

How the data were processed

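SORT-seq libraries of 6 mice (3 FibCtrl, 3 FibΔZeb1) were used, 1 plate of 384 wells each. The authors aligned reads with bwa to the GRCm38 transcriptome. Per the labels, Cell Ranger 2.1.1 and BWA are named among the tools. For each well they deposited barcode counts, whole counts of molecular barcodes, and estimated counts of transcripts derived from them. The latter were used here, rounded to whole transcripts after summing. Plate totals were 1575726 to 3699058 transcripts, of which spike-in RNA took 7.85% to 18.6%.

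Wells were filtered on 100 to 6000 genes, under 10% chrM transcripts and at most 1 transcript of Ptprc or Epcam. A marker's log2(1 + transcripts per 10000) was divided by its 99th percentile and averaged over its list. A well took the highest list if at least 3 markers (2 for a fibroblast subtype) were present and the next list was at most 0.75 of it. The sort placed 1 cell per well, and no doublet caller was run. Wells were summed per mouse and class, at least 5 wells per sum, so that the mouse is the replicate. Sums were tested by edgeR 4.0.16 (limma 3.58.1, R 4.3.3), with TMM, filterByExpr, quasi-likelihood tests and Benjamini-Hochberg adjustment over all genes tested at 0.05. Classes were compared with the mouse as a block and genotypes without. CPM per mouse was compared by two-sided exact permutation tests (scipy 1.17.1). Counts of 0 were bounded with a floor of 3 counts. DESeq2 1.42.0 and other settings were alternatives. Sums of at least 3 wells were added after seeing the data. The scripts were tested on simulated data.

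Genes named were the 8 members, Zeb1, 5 pathway genes, pathway genes past the threshold and the 10 most like Notch3. The members and all lists were chosen with earlier results of these data known. Proteins of the Hey genes and promoters of Hes1, Hey1 and Heyl were not analysed here.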

Additional observations from a re-analysis of the deposited data

Results flagged for a closer look

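Among 6 mice, Notch3 in fibroblast wells stood apart in mouse 5 at 32.2 CPM, its gap to the next mouse taking 0.678 of the whole range. Hey2 in fibroblast wells stood apart in mouse 4 at 2.86 CPM, with a gap of 0.849 of the range, and rests on 2 transcripts. Of 24 such sets of 6 mice examined, chance alone would set apart about 1 in 20 if the values followed a normal distribution. Hey2 in fibroblast wells, with 3 transcripts in all, is too sparse for that rate to apply.

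The 55 unassigned wells entered only the sums over all kept wells, and no comparison of classes. Pooled, 6 of the 8 genes were higher there than in fibroblast wells, though Hey1 (10.3 against 4.98 CPM) rests on 2 transcripts. The levels of the other 5 were 676 CPM for Notch3, 217 for Heyl, 196 for Jag1, 77.5 for Notch1 and 46.5 CPM for Hey2. Of 131 Notch3 transcripts there, 129 lay in 14 wells, 8 of them from mouse 2, 3 from mouse 1 and 3 from mouse 5.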

How the results depend on the processing

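No paired analysis was possible because the numbers of the mice only name them and tie no FibCtrl mouse to a FibΔZeb1 mouse. Of 108 alternative counts and main values, 87 stayed close to the reported value and 21 moved. Of 645 alternative values for single genes, 14 gained a call and 4 lost one. Genotype calls were few under every setting: in fibroblasts 4 with DESeq2 against 0, and in mural wells 1 with DESeq2, 7 when gated by markers detected and 0 with mt- genes alone as mitochondrial, without the gate margin, with wells of at least 1000 barcodes or with sums of 3 wells, against 11. Interaction calls were 0 with DESeq2, without the mouse block and with sums of 3 wells, 1 with mt- genes alone and 14 without excluding Ptprc or Epcam wells, against 9. Without a filter on low counts, telocytes differed from Cxcl13/Grem1 fibroblasts in 746 genes (445 reported) and iCAF in 848 (513). Thinned to 500 barcodes, 48.7% of mural wells showed Notch3. With each mouse left out, calls ranged from 938 to 1544 for mural against fibroblast, 503 to 1386 for telocyte against iCAF, 136 to 501 for telocyte and 161 to 516 for iCAF against Cxcl13/Grem1. Leaving out mouse 1 gave 503, 136 and 161 and mouse 2 588, 222 and 245, and the cause was not tested. Mural genotype and interaction fits without a mouse could not be fitted.

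Changes of sign concerned differences that passed no test. In fibroblasts by genotype, Notch1 was -0.13 by markers detected and -0.00667 without margin, and Hes1 0.0106 with mt- genes, 0.0246 without exclusion, 0.0191 by markers detected and 0.00639 at 1000 barcodes. In mural wells Jag1 was -0.24 with mt- genes, -0.00482 without margin and -0.20 with sums of 3 wells, and Hes1 0.0873 and 0.0657 under the first 2. Over all wells Notch1 was 0.18 and Jag1 -0.0618 with mt- genes, and Notch3 0.0239 without exclusion. The Hey2 interaction was -0.0940 without the block, and Hes1 in iCAF against Cxcl13/Grem1 -0.0386 by markers detected. With each mouse left out, the fibroblast genotype differences ranged from -0.49 to 0.26 for Hes1 and -0.0336 to 0.48 for Notch1. Those over all wells ranged from -0.39 to 0.18 for Notch1, -0.51 to 0.17 for Notch2, -0.81 to 0.26 for Notch3, -0.33 to 0.57 for Jag1, -0.61 to 0.000854 for Hes1 and -0.98 to 0.20 for Heyl. Notch2 in telocytes against Cxcl13/Grem1 ranged from -0.0831 to 0.45, and Hes1 in iCAF against them from -0.18 to 0.76. Few mural wells in mice 3, 5 and 6, and sparse Hey1 and Hey2, limit every mural comparison of the genotypes.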
